A study of Mus musculus with 6 samples.

Results

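Pancreatic islets hold, beside the insulin-producing beta cells and glucagon-producing alpha cells, smaller numbers of delta, PP and epsilon cells, and 9 genes tied to these minority endocrine cells are described here. The set comprised the hormone genes Sst, Ppy, Pyy and Ghrl, the transcription factor gene Hhex, and the receptor genes Ghsr, Lepr, Sstr1 and Casr. Each symbol matched a single Ensembl gene ID among the 56980 IDs of the deposited count table, and all 9 passed the filter on low counts that kept 18558 genes for testing. The tissue was whole islets of 14-week-old mice. The 3 knockout libraries carried the genotype SSBP3F/F; MIP-CreER, and the 3 control libraries, from littermates, carried SSBP3F/F alone, so floxed Ssbp3 alleles were shared by both groups. The SSBP3 protein is a partner of the LIM-domain cofactor LDB1, and MIP-CreER is a tamoxifen-inducible Cre recombinase driven by the mouse insulin promoter. Cre was therefore directed at beta cells, whereas the genes described here are known mainly from other islet cells. No library with MIP-CreER and intact Ssbp3 was analysed here, so the transgene and the deletion cannot be told apart, and the labels do not state when or to which mice tamoxifen was given. Single animals and pools are not told apart by the labels, so p-values here measure library-to-library spread, some of which may be technical.

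Delta cells release somatostatin, which binds inhibitory G-protein-coupled receptors on neighbouring beta and alpha cells and restrains the secretion of insulin and glucagon. PP cells release pancreatic polypeptide, a member of the neuropeptide Y family, and peptide YY belongs to the same family and is made in several endocrine cell types of the mouse islet. Epsilon cells release ghrelin and are rare in the adult islet. Ghrelin acts through the receptor encoded by Ghsr, which in mouse islets is known chiefly from delta cells, as is Hhex, a homeobox factor needed to maintain them. Whole-islet counts do not separate cell types, so fewer cells of a type and less RNA per cell cannot be told apart in any result that follows.

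The promoters of the 4 hormone genes are shown because Sst and Ghrl were the 2 genes that fell, and Ppy and Pyy are set beside them as the other hormones. Each window spans 250 bases before and 50 bases after a start site of the gene in RefSeq on GRCm38.p6, which is not the build used for the counts. For genes with several starts the window of the most upstream one is given. All 4 genes lie on the minus strand, and the windows are Sst at chr16:23890795-23891094, Ppy at chr11:102101270-102101569, Pyy at chr11:102107783-102108082 and Ghrl at chr6:113719862-113720161. Capitals mark TGACGTCA, the palindromic cAMP response element. They also mark TAAT, the core bound by many homeodomain proteins, LIM-homeodomain factors among them. The last motif in capitals is TATAA, the core of the box bound by the basal transcription machinery, and each was searched on both strands. These motifs do not overlap one another in the 4 windows.
Sst: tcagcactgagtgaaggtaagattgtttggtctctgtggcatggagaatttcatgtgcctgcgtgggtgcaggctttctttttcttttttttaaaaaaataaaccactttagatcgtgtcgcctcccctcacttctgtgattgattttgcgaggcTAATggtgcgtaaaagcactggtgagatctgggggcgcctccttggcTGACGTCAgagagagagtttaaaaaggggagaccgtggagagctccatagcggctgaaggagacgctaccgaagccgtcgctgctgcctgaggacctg
Ppy: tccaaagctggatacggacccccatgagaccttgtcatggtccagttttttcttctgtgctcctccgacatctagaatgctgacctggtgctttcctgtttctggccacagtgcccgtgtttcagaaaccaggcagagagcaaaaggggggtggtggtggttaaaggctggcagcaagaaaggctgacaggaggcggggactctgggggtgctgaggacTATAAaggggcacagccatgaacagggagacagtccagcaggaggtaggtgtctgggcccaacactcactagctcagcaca
Pyy: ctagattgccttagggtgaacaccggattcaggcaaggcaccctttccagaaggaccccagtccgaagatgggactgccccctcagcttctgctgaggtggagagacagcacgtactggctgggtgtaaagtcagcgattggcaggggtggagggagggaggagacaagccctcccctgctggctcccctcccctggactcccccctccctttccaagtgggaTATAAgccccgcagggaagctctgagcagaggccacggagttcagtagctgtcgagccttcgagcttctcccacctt
Ghrl: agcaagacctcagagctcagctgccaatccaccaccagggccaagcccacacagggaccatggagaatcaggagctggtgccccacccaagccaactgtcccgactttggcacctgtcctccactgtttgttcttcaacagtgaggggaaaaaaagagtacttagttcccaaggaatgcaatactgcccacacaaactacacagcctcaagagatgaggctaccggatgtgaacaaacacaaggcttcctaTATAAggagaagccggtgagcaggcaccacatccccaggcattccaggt
The Sst window held TGACGTCA starting 48 bases before the start site and TAAT starting 95 bases before it. Of 32851 promoter windows of that length in the table, 1.79% held TGACGTCA and 58.0% held TAAT, so TAAT is common. The windows of Ppy, Pyy and Ghrl held neither, but each held TATAA, as did 24.9% of all windows, starting 31 bases before the start site in Ppy, 27 bases before it in Pyy and at base 2 after it in Ghrl. Windows were found for 8 of the 9 genes. These matches describe the letters and say nothing of binding in these islets.

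Library totals were 14907641 to 93841878 counts in the knockout and 17587055 to 225428920 counts in the control group, with 1 shallow library in each (knockout 1 and control 1). Libraries are numbered after the columns of the table, whose names give the group but not the animal. Ssbp3 itself measured 52.3, 58.1 and 57.1 counts per 1000000 (CPM) in knockout 1, 2 and 3, against 65.8, 81.3 and 74.2 CPM in control 1, 2 and 3, and was not called (adjusted p = 0.0581). The labels do not name the deleted exons, so reads outside them may remain. Differences were tested with edgeR's quasi-likelihood test, and a gene is called when its Benjamini-Hochberg adjusted p over all 18558 genes is under 0.05. Each log2 fold change (log2FC) sets knockout over control and has a standard error (SE), and CPM use TMM-scaled library sizes.

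Sst and Ghrl fell in knockout islets, and none of the 9 genes was called higher. These 2 of 9 stand beside a background of 7.07% of all tested genes called in either direction (3.35% lower and 3.72% higher). At an unadjusted p under 0.05 there were 6 of the 9 genes, 2 of them higher, against a background of 21.6%. Other tools drew the line elsewhere. DESeq2 called 5 of the 9 genes (Sst, Ghrl, Ppy, Sstr1 and Casr; background 11.2%), limma-voom called Sst and Sstr1 (background 8.22%), and edgeR without a filter called Sst, Ghrl, Ppy and Casr (background 7.44%). The groups did not overlap for Sst, Ghrl and Hhex, all lower in knockout islets, nor for Sstr1 and Casr, both higher, while 28.0% of all tested genes showed no overlap. Both edgeR calls depended on the libraries included. Neither remained when control 1, control 2, knockout 1 or knockout 2 was left out, nor without both shallow libraries.

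**Figure D1:**
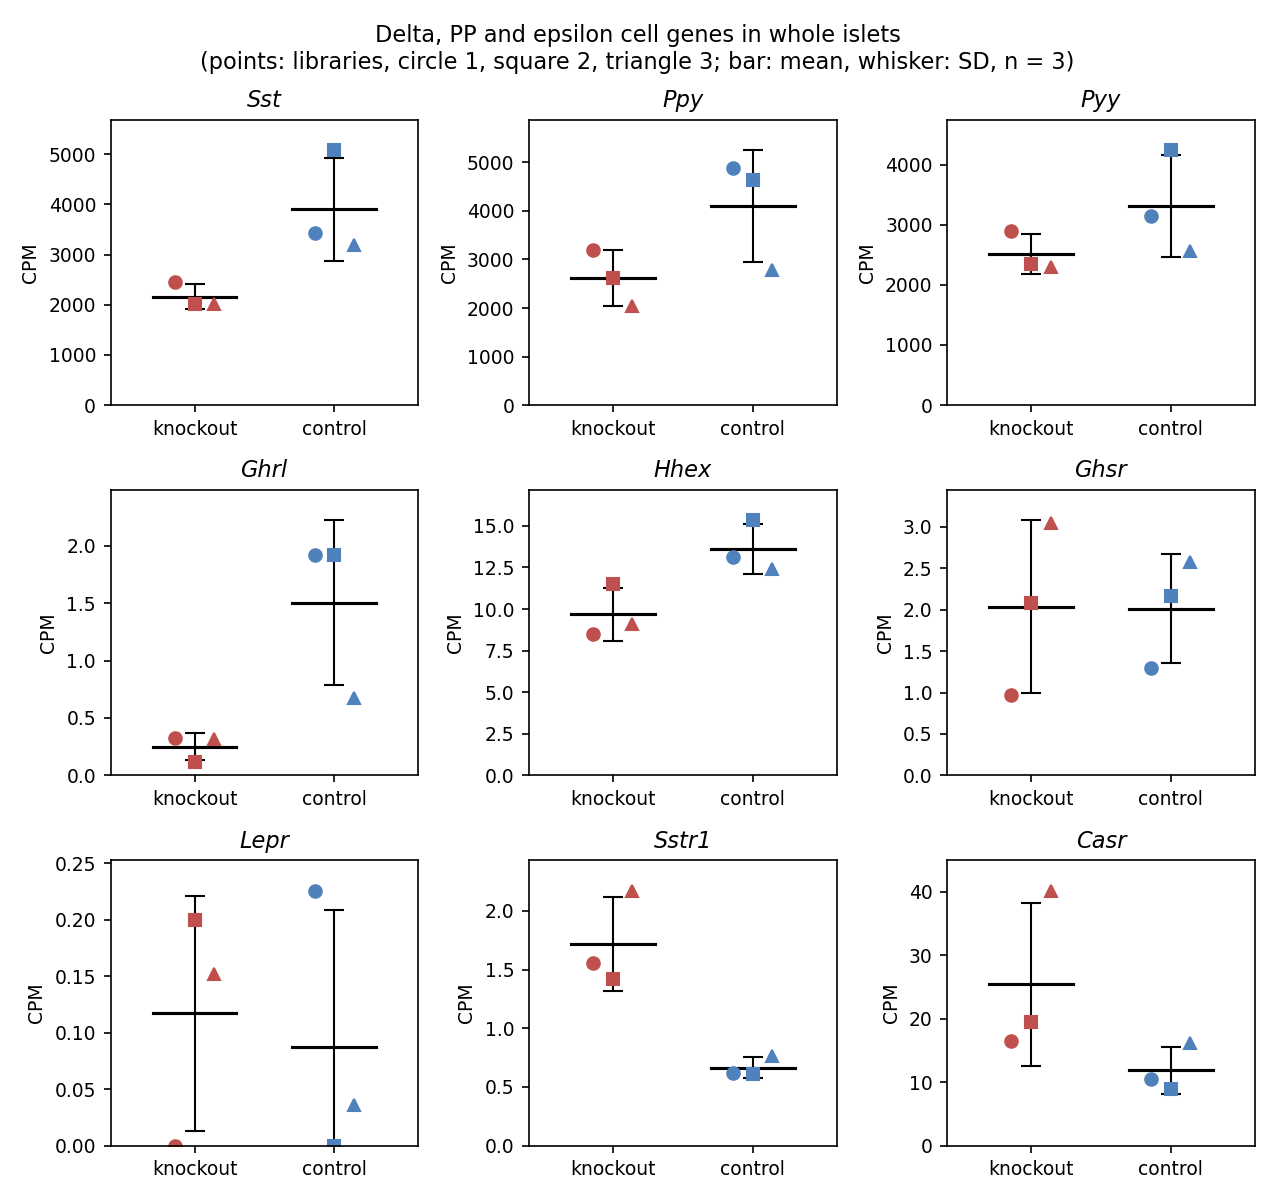
CPM of the 9 genes in each library, knockout left of control, on linear axes from 0; circles, squares and triangles are libraries 1, 2 and 3, horizontal bars means and whiskers SD (n = 3 per group). Every knockout point lies below every control point for Sst, Ghrl and Hhex and above it for Sstr1 and Casr.

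Somatostatin transcripts were abundant in every library and lower in all 3 knockout libraries. Sst (ENSMUSG00000004366) measured 2459, 2015 and 2016 CPM in knockout 1, 2 and 3, against 3436, 5083 and 3194 CPM in control 1, 2 and 3. The knockout libraries lay close together, whereas control 2 stood well above the other controls. The means were 2163 ± 256 CPM in knockout and 3904 ± 1028 CPM in control islets (SD, n = 3 each), a log2FC of -0.85 (SE 0.198, edgeR adjusted p = 0.0223). The edgeR adjusted p was 0.0545 without control 1, 0.0880 without control 2, 0.0629 without knockout 1, 0.0752 without knockout 2 and 0.164 without both shallow libraries. The log2FC kept its sign over 15 alternatives, from -1.04 to -0.61, and 10 of them called it.

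The peptides of the neuropeptide Y family were also lower on average, with overlap between the groups. Ppy (ENSMUSG00000017316), which encodes pancreatic polypeptide, measured 3192, 2610 and 2037 CPM in knockout 1, 2 and 3, against 4886, 4639 and 2783 CPM in control 1, 2 and 3. Control 3 fell within the knockout range, and the gene was not called (log2FC -0.65, SE 0.231, edgeR adjusted p = 0.114). It was called lower without control 3 (adjusted p = 0.0185), without a filter (0.000636) and by DESeq2 (0.0250). Pyy (ENSMUSG00000017311), a neighbour of Ppy on chromosome 11, measured 2890.0, 2345 and 2295 CPM in knockout 1, 2 and 3, against 3142, 4240.4 and 2565 CPM in control 1, 2 and 3. Its log2FC was -0.40 (SE 0.198, edgeR adjusted p = 0.264), with an interval of -0.80 to -0.01 spanning 2 SE on either side, and no alternative called it. Control 2 was the highest library for Pyy as it was for Sst, while for Ppy control 1 was the highest.

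Ghrelin transcripts were scarce in all islets and scarcer in the knockout group. Ghrl (ENSMUSG00000064177) had 5, 9 and 33 counts in knockout 1, 2 and 3, against 34, 154 and 150 counts in control 1, 2 and 3. These correspond to 0.323, 0.112 and 0.313 CPM in the knockout libraries and to 1.92, 1.92 and 0.676 CPM in the control libraries. Control 3 was far below the other controls yet above every knockout library. The log2FC was -2.63 (SE 0.648, edgeR adjusted p = 0.0288), the largest change in size among the 9 genes. The adjusted p was 0.0894 without control 1, 0.164 without control 2, 0.0611 without knockout 1, 0.0859 without knockout 2, 0.170 without both shallow libraries and 0.129 by limma-voom. In the GENCODE M21 annotation 172 of the 1079 exonic bases of Ghrl overlap genes on the opposite strand, and since no strand setting of the counting is stated, reads of both strands cannot be told apart there. The tested one of those genes, Gm26982, had 60, 171 and 142 counts in knockout 1, 2 and 3 and 60, 206 and 571 counts in control 1, 2 and 3.

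The delta-cell transcription factor gene Hhex (ENSMUSG00000024986) measured 8.47, 11.5 and 9.08 CPM in knockout 1, 2 and 3, against 13.1, 15.3 and 12.4 CPM in control 1, 2 and 3. The groups did not overlap, but the gap between knockout 2 and control 3 was small. The gene was not called (log2FC -0.48, SE 0.181, edgeR adjusted p = 0.134), nor was it under any of 15 alternatives (adjusted p 0.0704 to 0.443).

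None of the 4 receptor genes was called by edgeR. Ghsr (ENSMUSG00000051136), the ghrelin receptor gene, measured 0.970, 2.08 and 3.05 CPM in knockout 1, 2 and 3, against 1.30, 2.17 and 2.58 CPM in control 1, 2 and 3. The shallow library was the lowest of each group, and the groups overlapped across their whole range. Its log2FC of 0.03 (SE 0.424, edgeR adjusted p = 0.978) came with an interval of -0.82 to 0.88 (2 SE), and its sign turned in 4 of 15 alternatives.

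Sstr1 (ENSMUSG00000035431), a receptor of somatostatin, measured 1.55, 1.42 and 2.17 CPM in knockout 1, 2 and 3, against 0.621, 0.610 and 0.767 CPM in control 1, 2 and 3. In CPM every knockout library lay well above every control library. The counts were low, at 24, 114 and 229 in knockout 1, 2 and 3, against 11, 49 and 170 in control 1, 2 and 3. The log2FC was 1.36 (SE 0.425), which was not called by edgeR (adjusted p = 0.0758) but was by DESeq2 (0.0254) and limma-voom (0.0453). Casr (ENSMUSG00000051980), the extracellular calcium-sensing receptor best known from the parathyroid, measured 16.6, 19.5 and 40.1 CPM in knockout 1, 2 and 3, against 10.5, 8.96 and 16.1 CPM in control 1, 2 and 3. The separation between knockout 1 and control 3 was narrow, and knockout 3 held the highest value. The log2FC was 1.10 (SE 0.379, edgeR adjusted p = 0.147), and 0.60 without knockout 3 (adjusted p = 0.166). DESeq2 called it (adjusted p = 0.00427), as did edgeR without a filter (0.00134).

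Lepr (ENSMUSG00000057722), the leptin receptor gene, was at the limit of detection. It had 0, 16 and 16 counts in knockout 1, 2 and 3, against 4, 0 and 8 counts in control 1, 2 and 3. A count of 0 allowed up to 0.194 CPM in knockout 1 and 0.0373 CPM in control 2 (3 counts per library, covering counting error only). No difference in Lepr was detectable at this depth (edgeR adjusted p = 0.694), and no fold change is given.

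**Figure D2:**
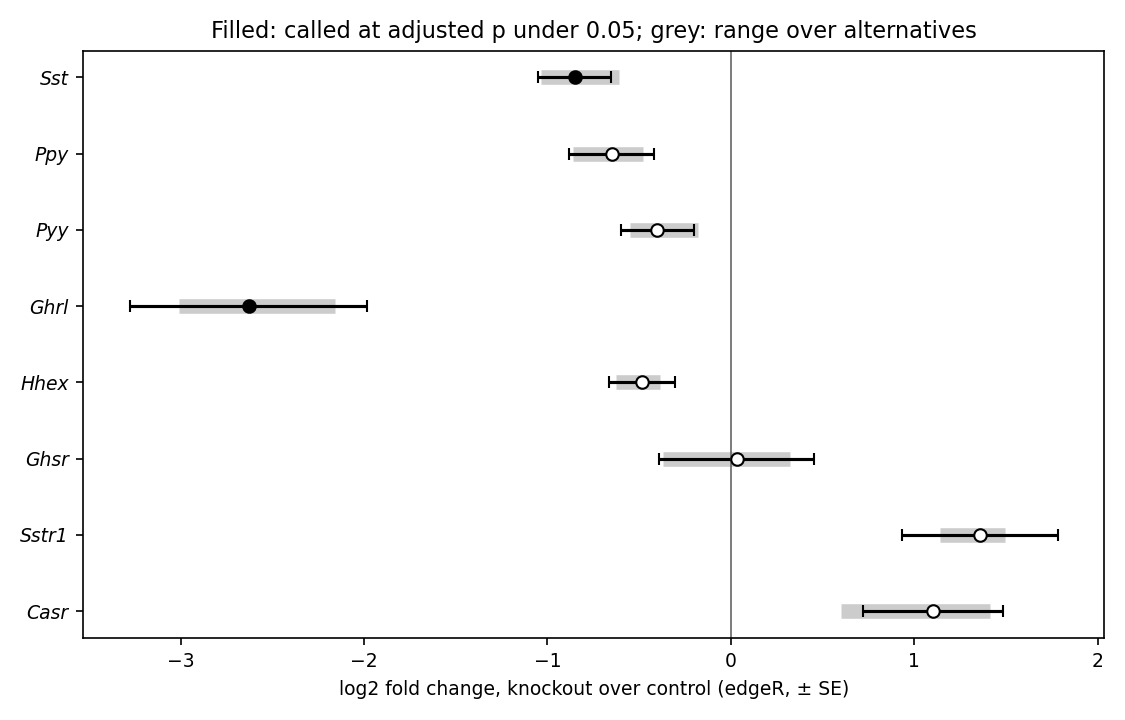
Log2FC of 8 of the 9 genes (Lepr, at the limit of detection, is not plotted), knockout over control, with its SE (edgeR, n = 3 per group); filled circles mark called genes and grey bars the range over up to 15 alternative settings. Sst at -0.85 and Ghrl at -2.63 are filled, the hormone genes and Hhex keep to the left of 0 in every setting, and Sstr1 and Casr to the right.

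Compared per kilobase of exon, Ppy, Pyy and Sst exceeded the remaining members by more than any spread between libraries in both groups. In knockout islets the order was Ppy with 5226 ± 1155 CPM per kilobase, Pyy with 3978 ± 523 and Sst with 3000.2 ± 356 (SD, n = 3). In control islets it was Ppy with 8205 ± 2299, Sst with 5415 ± 1426 and Pyy with 5255.0 ± 1349 CPM per kilobase. Sst thus stood below Pyy in knockout islets and above it in control islets, but the control ranges of Sst and Pyy overlapped, as did those of Ppy and Sst. In knockout islets the ranges of Ppy and Pyy overlapped, and every Pyy value lay above every Sst value. Among the scarce genes the order in knockout islets was Casr (5.38 CPM per kilobase), Hhex (1.92), Sstr1 (0.839), Ghsr (0.459), Ghrl (0.231) and Lepr (0.0166). In control islets it was Hhex (2.69), Casr (2.51), Ghrl (1.39), Ghsr (0.454), Sstr1 (0.325) and Lepr (0.0124). Ranges of neighbours overlapped between Ghsr and Ghrl in knockout islets, and between Hhex and Casr and between Ghsr and Sstr1 in control islets.

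Other islet hormone genes were also lower on average in knockout islets. Ins1 and Ins2 had log2FC values of -0.61 (SE 0.212) and -0.52 (SE 0.243), and Gcg, the glucagon gene, of -0.36 (SE 0.219), none of them called (edgeR adjusted p of 0.109, 0.234 and 0.375). The 8 hormone genes Ins1, Ins2, Iapp, Gcg, Sst, Ppy, Pyy and Ghrl together took 18.9%, 15.8% and 20.7% of the counts of knockout 1, 2 and 3, against 22.6%, 23.4% and 26.5% in control 1, 2 and 3. Within this sum, which does not depend on library scaling, Sst made up 1.35%, 1.22% and 1.09% in knockout 1, 2 and 3, against 1.53%, 1.96% and 1.19% in control 1, 2 and 3. The groups overlapped (exact permutation test, two-sided, p = 0.3, and 0.56 adjusted over 7 comparisons). With the sum restricted to Gcg, Sst, Ppy, Pyy and Ghrl, the knockout minus control difference in the Sst share was -2.64 percentage points, beside -0.34 in the sum of 8 genes, and the exact permutation p was 0.1, unadjusted and the smallest possible. Relative to Gcg alone, the log2 ratio of Sst counts was -3.13, -3.12 and -3.34 in knockout 1, 2 and 3, against -2.94, -2.58 and -2.62 in control 1, 2 and 3. All knockout libraries lay below all controls, by 0.48 on average (exact permutation p = 0.1, the smallest that 3 against 3 allows, and 0.35 adjusted over 7 comparisons). Against the summed insulin genes the difference in log2 ratio was -0.29 (exact permutation p = 0.4).

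For the shares of Ppy and Pyy among the hormones the groups overlapped. Ppy took 1.48% ± 0.336 of the hormone counts in knockout and 1.67% ± 0.582 in control islets, and Pyy 1.42% ± 0.171 in knockout and 1.33% ± 0.345 in control islets (SD, n = 3; exact permutation p = 0.7 and 0.8, both 0.8 adjusted over 7 comparisons). The log2 ratio of Ppy to Sst was 0.26 ± 0.207 in knockout and 0.06 ± 0.390 in control islets (exact permutation p = 0.4, 0.56 adjusted), and that of Ppy to Gcg was -2.94 ± 0.336 in knockout and -2.65 ± 0.204 in control islets (p = 0.4, 0.56 adjusted). Ghrl, by contrast, took a lower share of the hormone counts in each knockout library than in any control library, 0.000138% ± 6.09e-05 in knockout and 0.000615% ± 0.000321 in control islets (exact permutation p = 0.1, 0.35 adjusted).

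**Figure D3:**
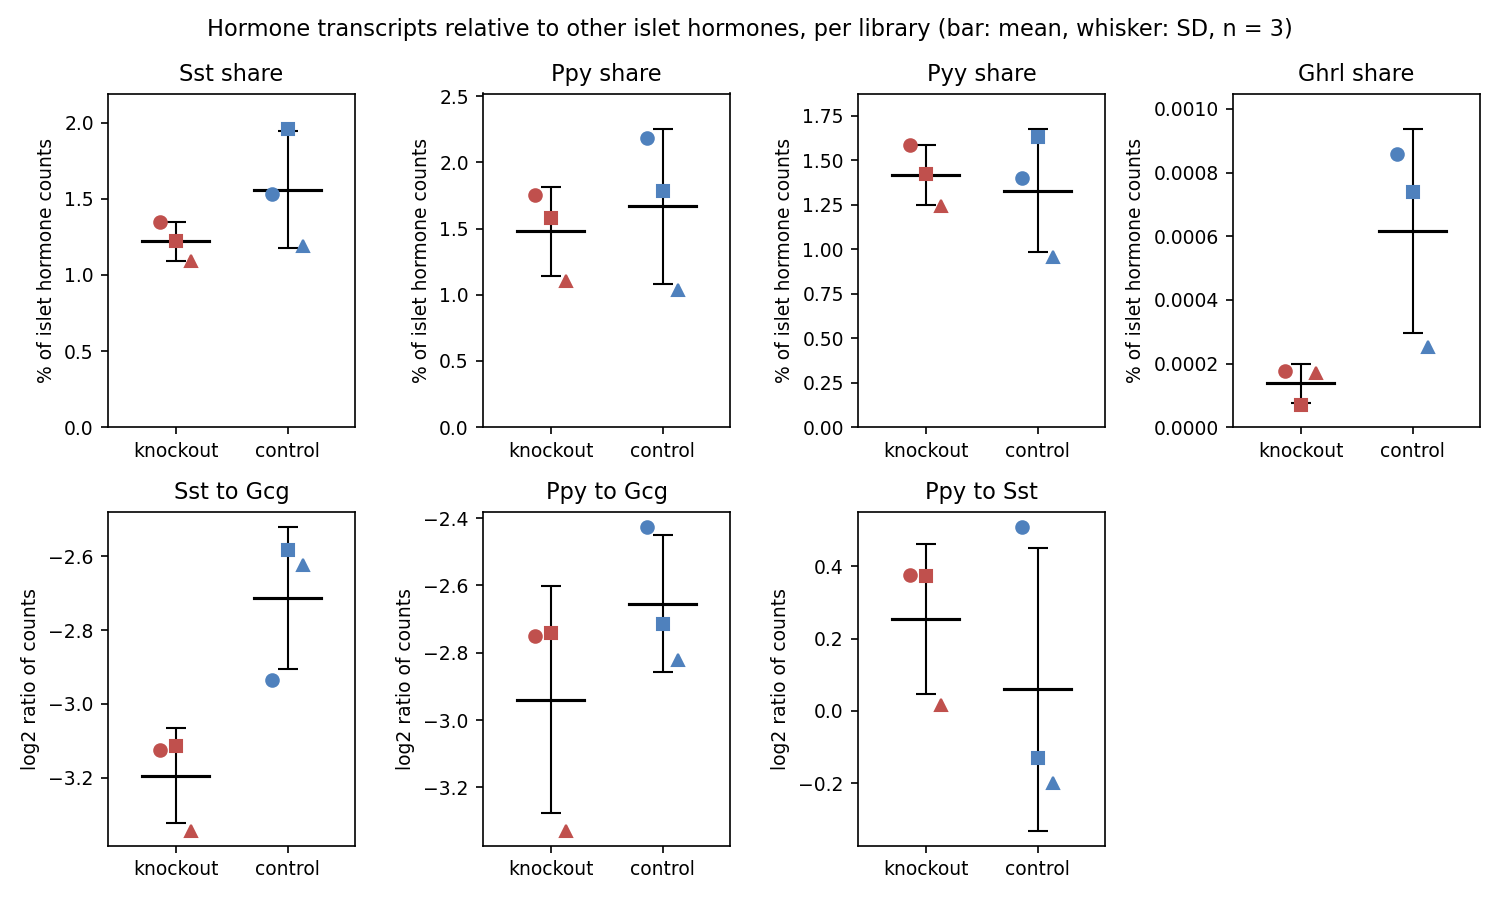
Share of the summed counts of 8 islet hormone genes (upper panels, in percent, from 0) and log2 ratios of hormone counts (lower panels) per library, knockout left of control, with circles, squares and triangles for libraries 1, 2 and 3, with means and SD (n = 3). The groups separate for the Ghrl share and the Sst to Gcg ratio and overlap in the other 5 panels.

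Hormone transcripts are short, and fold changes in these libraries ran with transcript length. The longest annotated transcripts of Sst, Ppy, Pyy and Ghrl measured 721, 500, 555 and 891 nucleotides. Over the 2208 tested genes with a longest transcript under 1000 nucleotides the median log2FC was -0.21, against 0.14 over 5754 genes above 4000 nucleotides, the class in which Ghsr, Lepr and Casr lie. With offsets for length and GC content the log2FC values were -0.65 for Sst (edgeR adjusted p = 0.0176), -0.48 for Ppy, -0.21 for Pyy and -2.37 for Ghrl (0.0408). Those of Sstr1 and Casr were 1.43 and 0.99 (adjusted p of 0.0647 and 0.183). The part of transcript length in these differences was otherwise not tested.

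Of 8 further genes known from delta cells 6 had a negative log2FC, and 1 of them was called, beside 7.07% of all tested genes. Rbp4, which encodes the retinol-binding protein and is abundant in delta cells, fell to 104 ± 9.40 CPM in knockout islets, against 154 ± 36.2 CPM in control islets (log2FC -0.57, SE 0.157, edgeR adjusted p = 0.0477). That call was lost in 8 of 15 alternatives, among them limma-voom, the length and GC offsets and every omission of a library except control 3. None of the 8 was called higher, and their median log2FC was -0.65, against -0.00 over all genes tested. Ffar4, a receptor for long-chain fatty acids, had 5.47 ± 0.818 CPM in knockout and 8.62 ± 1.89 CPM in control islets, without overlap (edgeR adjusted p = 0.103). Ptprz1, a receptor tyrosine phosphatase gene, had a log2FC of -0.65 (adjusted p = 0.293). Frzb, a secreted Wnt antagonist, ran the other way with a log2FC of 0.35 (adjusted p = 0.196). Bche, Cckbr and Crhr2 reached at most 1.10 CPM in any library.

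**Figure D4:**
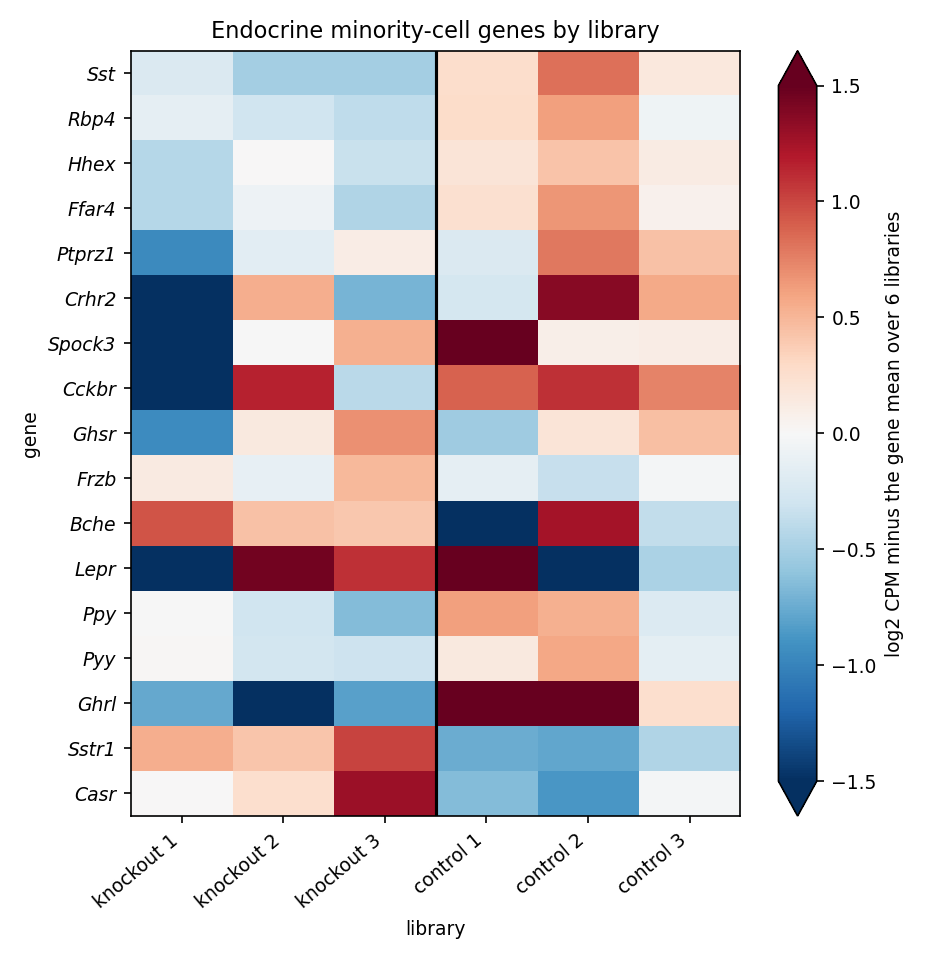
Log2 CPM of the 9 genes and of 8 further genes known from delta cells, centred on each gene's mean over the 6 libraries, with knockout libraries left of the black line; the colour scale ends at 1.5 in either direction. Sst, Rbp4, Hhex, Ffar4 and Ghrl are below their mean or near it in the knockout libraries and above or near it in the controls. Sstr1 and Casr show the opposite.

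Among the somatostatin receptor genes, Sstr3 was expressed far above the others. Sstr3 stood at 33.7 ± 2.04 CPM per kilobase in knockout and 34.2 ± 1.02 CPM per kilobase in control islets, and its log2FC was -0.02 (SE 0.107, edgeR adjusted p = 0.942). Sstr1, by comparison, stood at 0.839 ± 0.195 CPM per kilobase in knockout and 0.325 ± 0.0427 in control islets. Sstr4, Sstr5 and the related peptide gene Cort had at most 20 counts in any library and were not tested. Sstr2 had a log2FC of -0.35 (adjusted p = 0.596).

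Among 12 genes for the inhibitory G proteins, potassium channels and adenylyl cyclases that such receptors engage, 2 rose and none fell. The background over all tested genes was 3.72% called higher and 3.35% called lower. Kcnj5, a subunit of the G-protein-gated inward rectifier channels that these receptors open, had 160, 780 and 860 counts in knockout 1, 2 and 3, against 0, 0 and 26 counts in control 1, 2 and 3. It was thus close to undetected in control islets and measured 9.41 ± 1.13 CPM in knockout and 0.0391 ± 0.0677 CPM in control islets (SD, n = 3). The fitted log2FC was 7.05 (SE 0.631, edgeR adjusted p = 0.000211), and the gene was called under all 15 alternatives. With 2 of the 3 controls at 0 counts, the size of the log2FC rests on the 26 counts of control 3, and it ran from 6.54 to 12.13 over those alternatives. The highest value came without control 3, where the remaining controls are at 0 and the fitted value is no measure of size. Kcnj6 and Kcnj3, which encode partner subunits, were not called (log2FC values of 0.66 and -0.62, adjusted p of 0.318 and 0.324). Gnai2, an inhibitory G-protein alpha subunit, rose by a log2FC of 0.59 (edgeR adjusted p = 0.0380), a call lost without control 1, control 2, knockout 1 or knockout 2 and without both shallow libraries. The median over the 12 genes was 0.18.

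Receptors for the PP peptides were hardly detected. Npy1r, Npy2r, Npy4r, Npy5r and Npy6r had at most 12 counts in any library and were not tested. Npy, which encodes neuropeptide Y itself, had a log2FC of -0.70 (SE 0.335, edgeR adjusted p = 0.248). Dpp4, the peptidase that trims peptide YY and the incretins, rose to 79.6 ± 7.55 CPM in knockout islets, against 47.1 ± 4.62 CPM in control islets (log2FC 0.76, edgeR adjusted p = 0.00306), and was no longer called once both shallow libraries were left out (0.0765). In Dpp4, 232 of 6319 exonic bases overlap a gene on the opposite strand. Of the 4 members of this list that were tested 1 rose and none fell, beside 7.07% of all tested genes called in either direction.

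Of 6 tested genes of the ghrelin axis, Ghrl and Pcsk1 fell, beside 7.07% of all tested genes called in either direction. Pcsk1, the prohormone convertase that processes proghrelin and many other precursors, had a log2FC of -0.68 (edgeR adjusted p = 0.0105), a call lost without knockout 1, knockout 2 or both shallow libraries. Mboat4, the acyltransferase that activates ghrelin, reached at most 0.417 CPM in any library. Among 8 genes of peptide processing and amidation the endoprotease gene Furin (log2FC 0.60, adjusted p = 0.0192) and the carboxypeptidase gene Cpd (1.01, 0.00154) rose, Pcsk1 fell, and Pcsk2, which processes prosomatostatin and proglucagon, had a log2FC of 0.04 (adjusted p = 0.920). The call of Furin was lost without control 1, control 2, knockout 2 or both shallow libraries, and that of Cpd only without both shallow libraries (0.0689).

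The leptin and calcium-sensing receptor lists, which include Lepr and Casr, had 0 of 8 and 1 of 13 tested genes called, beside 7.07% over all genes. None of 8 tested genes of leptin receptor signalling was called, by edgeR, DESeq2 or limma-voom, and 2 had an unadjusted p under 0.05, the kinase gene Jak2 (log2FC 0.43, edgeR adjusted p = 0.0845) and Stat3 (0.32, 0.157). Of 13 genes of calcium-sensing receptor signalling, Itpr3, an inositol trisphosphate receptor, rose by a log2FC of 0.53 (edgeR adjusted p = 0.0246) and none fell, with a list median of 0.22. DESeq2, and edgeR without a filter, called 5 of these 13 higher (backgrounds in either direction 11.2% and 7.44%). The related genes Itpr1, Itpr2 and Plcb1 were higher in every knockout library than in any control library but were not called (log2FC of 0.63, 0.72 and 0.59, edgeR adjusted p of 0.0656, 0.0815 and 0.0928). Such a separation with knockout higher was seen in 14.0% of all tested genes. The call of Itpr3 was lost with length and GC offsets and without any library but control 3.

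Of 14 tested transcription factor genes of the non-beta endocrine lineages, 2 rose, Rfx6 among them, and none fell. Over all tested genes 3.72% were called higher and 3.35% lower. Rfx6, a factor of endocrine development, rose by a log2FC of 0.51 (edgeR adjusted p = 0.0338), lost without control 1, control 2, knockout 1, knockout 3 or both shallow libraries. Pax4 had 0 counts in all 6 libraries. Isl1, the LIM-homeodomain factor that activates Sst, had a log2FC of -0.15 (SE 0.116, adjusted p = 0.501), and Pdx1, which also binds the Sst promoter, of -0.38 (adjusted p = 0.0888).

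Among 14 genes for signals and receptors that may act on delta cells, some were lower and others higher. In which islet cells the receptor genes changed cannot be told from whole-islet counts. Ucn3, which encodes the beta-cell peptide urocortin 3 that stimulates somatostatin release in mouse islets, had a log2FC of -0.80 (edgeR adjusted p = 0.0176) and fell, and the incretin receptor gene Gipr fell too, with a log2FC of -1.03 (0.0133). The call of Ucn3 was lost with length and GC offsets and without control 1, knockout 1, knockout 2 or both shallow libraries, and that of Gipr without control 1 or both shallow libraries. The glucagon receptor gene Gcgr rose to 25.1 ± 4.26 CPM in knockout islets, against 16.3 ± 0.687 CPM in control islets (log2FC 0.61, edgeR adjusted p = 0.0315). Its call was lost without any control library, without knockout 1 and without both shallow libraries. These 2 lower and 1 higher were the calls among 14 genes of this list, whose median log2FC was -0.14. Over all tested genes 7.07% were called in either direction.

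**Figure D5:**
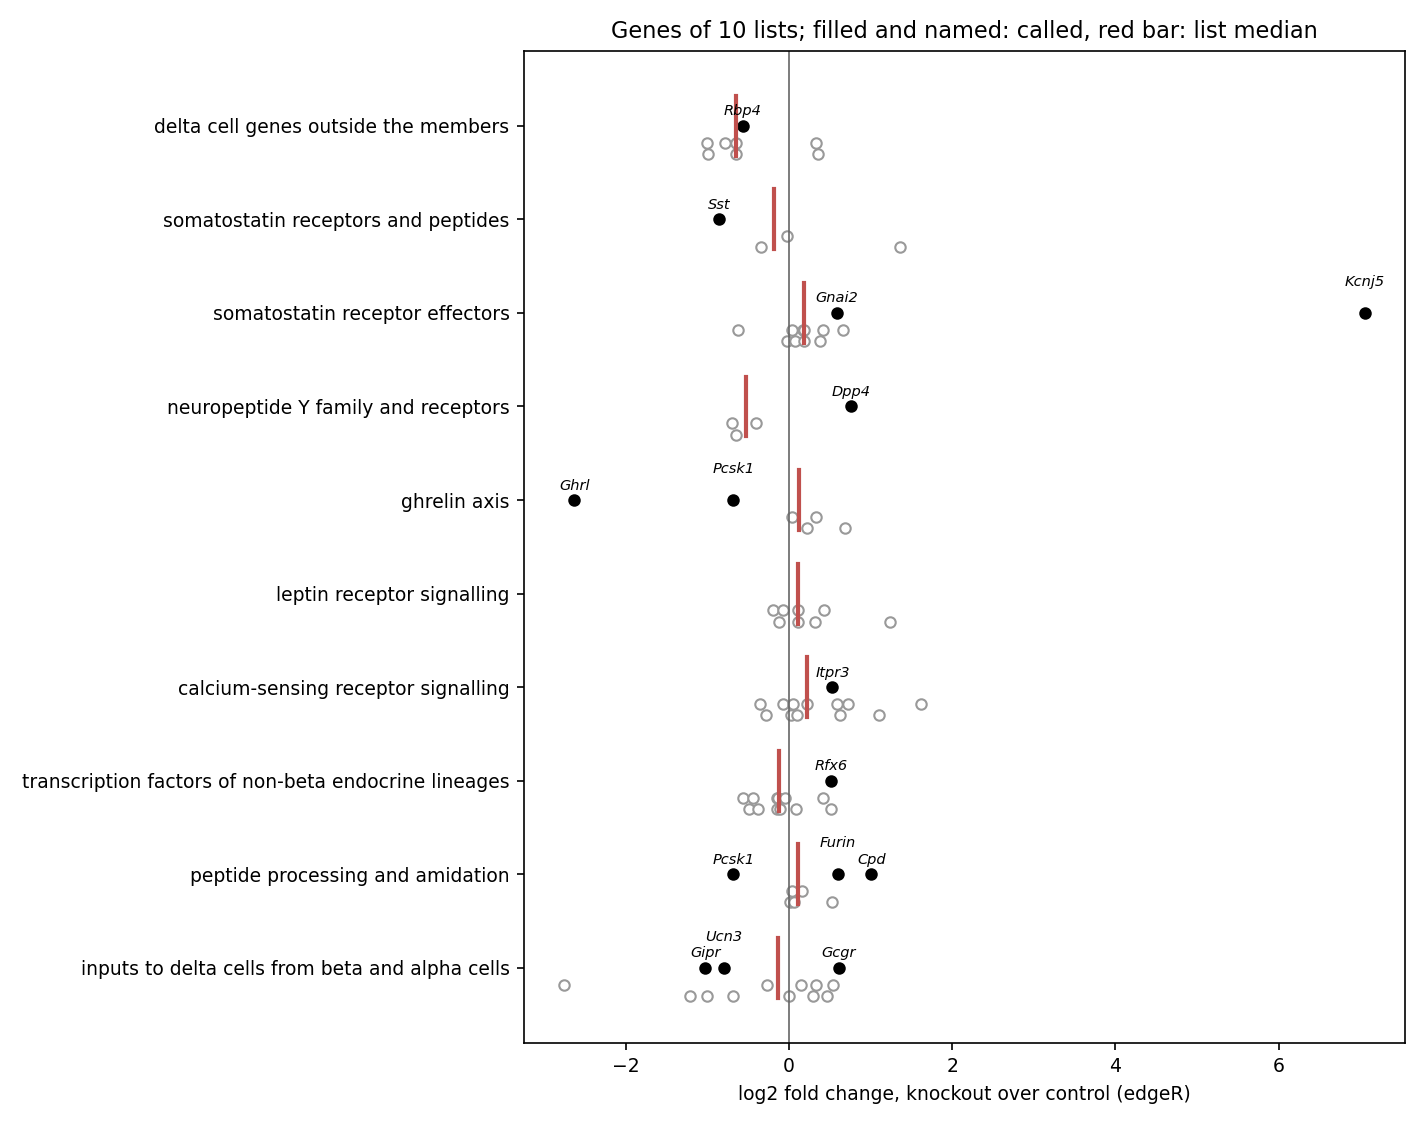
Log2FC values, knockout over control, of the tested genes of 10 lists around the 9 genes (edgeR); filled named points are called, open points are not, and red bars are medians of all tested genes of a list, of which 1 called gene is not shown. Kcnj5 at 7.05 stands apart from every other gene shown. Among the 10 lists the delta cell list has the lowest median at -0.65, next to -0.53 for the neuropeptide Y list.

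The genes whose pattern over the 6 libraries was most like that of each hormone gene were found by the root mean square difference of centred log2 CPM among 10150 genes with a mean of at least 5 CPM. For Sst these were Hist3h2ba, a histone gene (0.10), Pet100, an assembly factor of cytochrome c oxidase (0.11), and Mien1 (0.13). For Ppy they were Tma7 (0.12), the respiratory complex I subunit gene Ndufa13 (0.12) and Saysd1 (0.13). For Pyy the nearest was Ttr, the transthyretin gene strongly expressed in alpha cells (0.06), followed by Kdelc1 (0.08) and Gemin2 (0.09). Ghrl had no close match, with Mirg, Malat1 and Sdf2l1 at 0.65, 0.66 and 0.69.

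Markers of other cells differed to varying degrees, and their calls stand beside 7.07% of all tested genes called in either direction. Of 8 beta-cell markers Mafa, G6pc2 and Ucn3 fell and none rose. The 8 markers summed to 141625 to 159295 CPM in knockout and 188583 to 243679 CPM in control islets. Most of this sum was Ins2 (means of 94688 CPM in knockout and 136010 CPM in control islets) and Ins1 (35653 and 54309.5 CPM), neither of them called. The call of Mafa was lost with length and GC offsets and without control 1, control 3, knockout 1 or both shallow libraries, and that of G6pc2 only without both shallow libraries. None of 8 alpha-cell markers was called, with sums of 18807 to 23035 CPM in knockout and 21086 to 32451 CPM in control islets. Most of that sum was Gcg (means of 19792 CPM in knockout and 25466 CPM in control islets). Of 12 acinar markers 1 fell (Bhlha15, a factor also of other secretory cells), with overlapping sums of 13894 to 46809 CPM in knockout and 17739.7 to 34554 CPM in control islets. Summed duct markers were lower (1047 to 1587 CPM in knockout, 1802 to 2341 CPM in control). Of these 8 markers 2 were called higher, Cftr among them, and Spp1 was not called (log2FC -1.08, edgeR adjusted p = 0.0550). Summed endothelial markers were higher (238 to 303 CPM in knockout, 207 to 236 CPM in control), and 1 of those 8 markers, Cdh5, was called higher. Schwann and neural markers summed to 38.9 to 42.7 CPM in knockout and 67.2 to 87.1 CPM in control islets with 1 of 8 lower (Tubb3), and stromal and immune sums overlapped with none called. The call of Cftr was lost without control 2, knockout 1, knockout 2 or both shallow libraries, and that of Cdh5 with upper-quartile factors, by limma-voom and without control 1, control 2, knockout 1, knockout 2 or both shallow libraries. That of Bhlha15 was lost without knockout 1 or both shallow libraries, and that of Tubb3 without both shallow libraries. The part of these cells in the differences above was not tested.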

How the data were processed

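Whole-islet RNA of 3 knockout and 3 control mice or pools was sequenced. The authors deposited whole-number counts per Ensembl gene, and the submitters' processing notes name STAR 2.7.3a, featureCounts, Trim Galore 0.6.7, FastQC 0.11.9 and the build GRCm39 (mm39). The annotation release, strand and pair settings were not given in the sources used here. Between 62.3% and 73.2% of nonzero counts in a library were even, so a count may be less than a fragment. From the counts, genes were filtered (filterByExpr), scaled (TMM) and tested in R 4.3.3 with edgeR 4.0.16 (robust quasi-likelihood test, Benjamini-Hochberg over all tested genes), without covariates, after a test on simulated data. SE is the log2 fold change over the root of F. Shares and ratios were compared by exact permutation over libraries, adjusted over 7. Symbols, lengths and GC content came from GENCODE M21 (GRCm38) by gene ID for 52073 IDs, and promoters from RefSeq. Same-group libraries differed by more than sampling noise (chi-square averaged over genes at least 39.8). The 9 genes and all lists were chosen with earlier results of these data known. Named were the 9 genes, Ssbp3, called list members (some are not reported here), others of small p, and the 3 most similar genes per hormone; Ins1, Ins2, Gcg, Sstr3, Isl1, Pdx1, Pcsk2, Mboat4 and genes at low counts were added after their values were seen. Alternatives were other scaling, filters, DESeq2 1.42.0, limma-voom (limma 3.58.1), length and GC offsets, left-out libraries, and, for shares and ratios, sums without Ins1, Ins2 and Iapp or the insulin genes as denominator.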

Additional observations from a re-analysis of the deposited data

How the results depend on the processing

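The call of 2 of the 9 genes was the same under DESeq2 size factors, upper-quartile factors, library sizes without hormone and acinar genes, and length and GC offsets. It was 4 genes without a filter (1 of them higher), 1 gene (lower) with a filter of 1 CPM in 3 libraries, where Ghrl and Lepr were not tested, and 5 genes (2 higher) by DESeq2. By limma-voom 1 was higher and 1 lower. Leaving out 1 library gave 0 to 3 genes, all lower, and leaving out both shallow libraries 0 genes (edgeR). With those libraries left out no member was called and 124 genes were called over all genes (76 higher, 48 lower). Over all genes tested, 1312 were called by edgeR (691 higher, 621 lower), 2153 without a filter (1222 higher), 2080 by DESeq2 (1094 higher, 986 lower), and 519 to 1309 without 1 library (295 to 719 higher, 224 to 590 lower). The share of higher calls was 52.7%, and 42.5% with upper-quartile factors. Why the counts differ was not tested.

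The log2 fold change of Ghsr was -0.024 with upper-quartile factors, -0.071 with length and GC offsets and between -0.37 and 0.32 without 1 library (-0.17 without control 1 and -0.37 without knockout 3). The difference in the Ppy share of hormone counts was -0.504 to 0.0690 percentage points without 1 library, and that of Pyy -0.100 to 0.238. Ppy over the insulin genes gave -0.092 in place of the Ppy to Sst log2 ratio of 0.20. The causes were not tested. No paired analysis was possible because the titles of the 2 groups share fewer than 2 numbers and the count columns cannot be tied to titles. Depth limited Lepr, with 16 counts or fewer in every library, and Ghrl in knockout 1 and 2.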
